A study of Mus musculus with 12 samples.

Results

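The beige fate transcription regulators are a set of 10 genes, Prdm16, Ehmt1, Klf11, Ebf1, Ebf2, Zfp423, Zfp516, Irf4, Tle3 and Foxc2, taken by symbol from a count table of 23420 genes. They were read in inguinal white adipose tissue (iWAT), a subcutaneous mouse fat depot, by RNA sequencing of 12 male C57BL/6 mice aged 10 weeks on their labels. All 10 were found, and all 10 passed the filter on low counts that 15306 genes passed. The study asked what loss of the hypoxia-inducible factor HIF2α in fat cells does to the remodelling of iWAT, and the comparisons here are cold against thermoneutrality and HIF2α loss against its control.

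The 4 groups held 3 mice each. WT mice carried loxP-flanked HIF2a alleles (HIF2a loxP/loxP) without Cre, and HIF2α AKO mice carried the same alleles with Adipoq-Cre, so that Cre and loss of the gene always came together. Thermoneutral (TN) mice were kept at 30 °C for 1 week, and cold mice at 4 to 6 °C for 3 days, so that temperature and length of housing also came together. Adipoq-Cre acts in adipocytes, whereas the RNA came from whole iWAT, in which progenitors, endothelium and leukocytes keep the gene. Epas1, which encodes HIF2α, was measured at 627 ± 101 CPM (read counts relative to the TMM-scaled library size, mean ± SD, n = 3) in cold WT and at 826 ± 138 CPM in the libraries labelled cold HIF2α AKO. In the TN groups it stood at 360 ± 76.7 and 348 ± 53.8 CPM. The level of Epas1 therefore did not separate the genotypes in the labelled direction, and genotypes are given as labelled. The deposited gene counts do not show whether the floxed exon was lost.

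Libraries held between 22368316 and 35204631 reads on genes. The white adipocyte genes Adipoq and Lep were present in all 12 libraries, Adipoq at 899 CPM or more. Summed over 12 skeletal muscle markers, 2 libraries stood apart, cold HIF2α AKO mouse 1 at 1279 CPM and TN HIF2α AKO mouse 2 at 1571 CPM, with at most 94.6 CPM in any other. Summed over 6 epithelial markers, TN WT mouse 3 stood at 200 CPM, with at most 10.3 CPM in any other. Results that change without these libraries are given with both values.

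Beige adipocytes are thermogenic fat cells that arise in white depots under cold. PRDM16 is a zinc finger co-regulator that switches on the brown and beige programme in fat cells and acts with the histone H3 lysine 9 methyltransferase EHMT1. EBF2 is an early B cell factor that marks and commits brown and beige precursors, and its relative EBF1 is used both in fat cell and in B cell differentiation. ZFP516 and IRF4 are cold- or cAMP-responsive activators of thermogenic genes, and IRF4 is also a factor of lymphocytes and plasma cells. KLF11 is a Krüppel-like factor used by browning adipocytes, and FOXC2 is a forkhead factor that raises the sensitivity of fat to adrenergic signals and is also needed in lymphatic vessels. ZFP423 and TLE3 stand on the other side: ZFP423 commits cells to the fat lineage and restrains EBF2 in white adipocytes, and TLE3 is a co-repressor that favours the white programme over PRDM16.

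The promoters of Prdm16 and Zfp423 are shown because these were the members that rose in cold, and those of Klf11 and Tle3 as examples of windows that hold the hypoxia response core, with ACGTG on both strands. RefSeq promoter windows on GRCm38.p6 were matched by symbol for 7 of the 10 members, with 9 windows in all. Ebf2, Zfp516 and Foxc2 had no entry. Each window is 300 bases long and is written 5′ to 3′ on the gene's strand. Capitals mark the hypoxia response cores ACGTG and GCGTG and the GC box GGGCGG, the letters bound by Sp and Krüppel-like factors, each on either strand.
Prdm16, chr4:154636824-154637123, minus strand: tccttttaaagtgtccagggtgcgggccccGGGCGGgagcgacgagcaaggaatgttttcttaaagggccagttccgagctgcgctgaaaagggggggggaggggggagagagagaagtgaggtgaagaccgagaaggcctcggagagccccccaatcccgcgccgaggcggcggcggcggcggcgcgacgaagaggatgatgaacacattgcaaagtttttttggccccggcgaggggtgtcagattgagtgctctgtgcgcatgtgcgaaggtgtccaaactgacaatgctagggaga
Zfp423, chr8:87959546-87959845, minus strand: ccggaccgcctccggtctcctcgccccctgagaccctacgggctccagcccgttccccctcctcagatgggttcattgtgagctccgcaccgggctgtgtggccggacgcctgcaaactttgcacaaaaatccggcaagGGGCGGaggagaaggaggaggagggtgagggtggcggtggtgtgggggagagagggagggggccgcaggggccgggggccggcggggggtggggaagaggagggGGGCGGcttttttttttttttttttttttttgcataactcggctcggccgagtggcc
Klf11, chr12:24651121-24651420, plus strand: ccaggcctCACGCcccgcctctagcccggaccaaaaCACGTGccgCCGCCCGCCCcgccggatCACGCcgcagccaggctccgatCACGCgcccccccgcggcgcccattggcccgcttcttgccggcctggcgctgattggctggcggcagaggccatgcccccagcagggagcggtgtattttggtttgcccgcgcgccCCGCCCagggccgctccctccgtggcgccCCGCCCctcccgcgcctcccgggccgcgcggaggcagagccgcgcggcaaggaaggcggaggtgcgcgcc
Tle3, chr9:61372116-61372415, plus strand: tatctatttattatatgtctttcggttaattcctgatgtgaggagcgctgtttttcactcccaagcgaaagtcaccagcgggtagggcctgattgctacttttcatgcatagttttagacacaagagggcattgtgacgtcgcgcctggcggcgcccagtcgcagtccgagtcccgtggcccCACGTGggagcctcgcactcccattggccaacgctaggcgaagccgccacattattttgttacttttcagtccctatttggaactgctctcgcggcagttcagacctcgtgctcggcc

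The windows of Prdm16 and Zfp423 held neither ACGTG nor GCGTG on either strand, and each held the GC box, 1 time in Prdm16 and 2 times in the Zfp423 window shown. Klf11 and Tle3 each held the palindrome made when ACGTG matches on both strands at overlapping places, and Klf11 also held GCGTG 3 times. Of the members not shown, Ebf1 held ACGTG 1 time and GCGTG 2 times in 1 of its 2 windows, Ehmt1 held GCGTG 2 times and Irf4 held it 1 time. The GC box was also held by Klf11, Ehmt1 and Irf4, which were not called upward in cold, and not by Tle3 or Ebf1. Of all 32851 RefSeq promoter windows of this length, 19.6% held ACGTG, 32.4% held GCGTG and 35.7% held GGGCGG. The EBF palindrome (TCCC and GGGA with any 2 bases between them) and the cAMP response element TGACGTCA, held by 0.904% and 1.79% of all windows, were in none of the 9 windows of members. These matches describe letters in short windows and say nothing of binding.

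Compared per length, as CPM per kilobase of exon, the members spanned a wide range (plot of levels per exon length). Irf4 had the highest median over 12 mice at 13.9 CPM per kb, followed by Tle3 at 12.8, Ehmt1 at 8.96 and Ebf1 at 8.02. Zfp423 followed at 6.04 CPM per kb, Ebf2 at 4.47, Zfp516 at 4.24 and Klf11 at 3.98. Prdm16 was next to last at 2.35 CPM per kb, and Foxc2 was last at 0.342. On this scale, ranges over the 12 mice did not overlap between Tle3 and Ehmt1 or between Prdm16 and Foxc2, and every other pair of neighbours in the order overlapped. Irf4 was above Tle3 in 8 of 12 mice, and Zfp516 above Klf11 in 7 of 12.

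**Figure D1:**
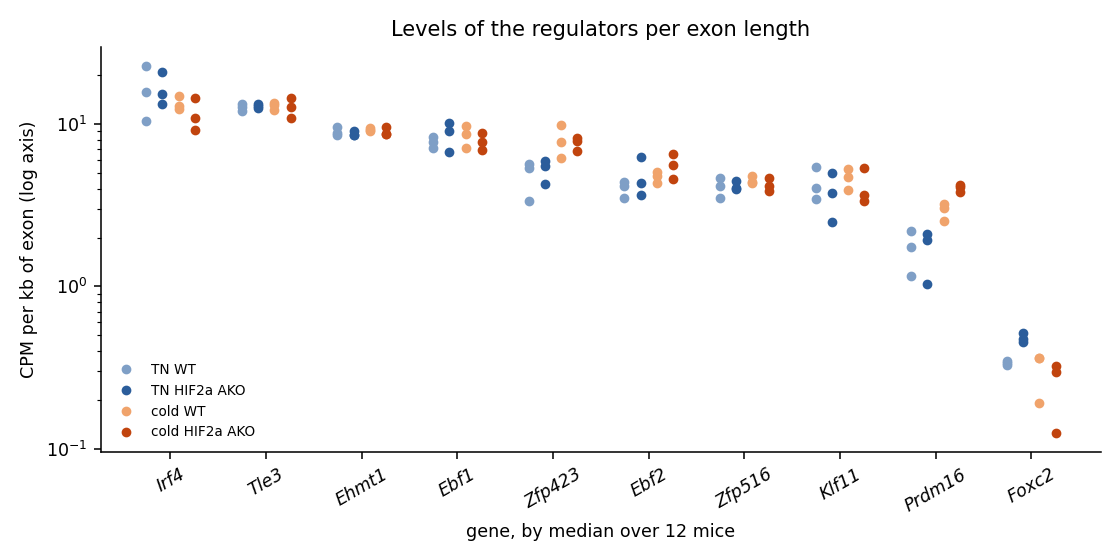
Level of each regulator in CPM per kilobase of exon on a log axis, 1 point per mouse, coloured by group and ordered by the median over 12 mice. Foxc2 lies between 0.124 and 0.518 in all mice, below every other member, and Prdm16 lies between 1.03 and 4.21.

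Within the steady members, Ehmt1 ranged from 69.1 to 78.0 CPM over all 12 mice, a ratio of highest to lowest of 1.13. Tle3 ranged from 127 to 168 CPM, a ratio of 1.32, and Zfp516 from 28.8 to 39.3 CPM, a ratio of 1.37. The widest ratios were 4.17 in Foxc2 and 4.09 in Prdm16.

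Cold against TN asks how the regulators respond when iWAT browns. Prdm16 was higher in cold in both genotypes, Zfp423 was higher as well, and no member fell past the test in the main fit. Foxc2 and Irf4 did under other scalings of the libraries, and with library size alone Ebf1, Tle3 and Ehmt1 did too, averaged over both genotypes. In WT, 1 of the 10 members, Zfp423, passed the test (edgeR quasi-likelihood test, adjusted p under 0.05 over all genes), beside 21.3% of all genes tested. In HIF2α AKO, 1 of 10, Prdm16, passed it, beside 27.0% of all genes. Averaged over both genotypes, 2 of 10 passed, both upward, beside 48.8% of all genes in either direction and 24.8% upward. With library size alone 7 of 10 passed, 5 of them downward, beside 63.7% of all genes. With upper-quartile scaling 4 of 10 passed, 2 of them downward, beside 54.6%, and without the 3 libraries with muscle or epithelial transcripts 4 of 10 passed, 1 of them downward, beside 43.6%. The median log2 fold change of the members in that averaged contrast was 0.06, beside -0.05 over all genes tested.

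The groups of 3 mice did not overlap between cold and TN for 2 members in WT, Prdm16 and Zfp423, beside 42.0% of all genes. In HIF2α AKO they did not overlap for 3 members, Prdm16 and Zfp423 upward and Foxc2 downward, beside 50.5% of all genes. The members' shares lie below these shares of all genes.

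Of the 10 members, Prdm16 (chr4:154316125-154636873, minus strand, GRCm38) had the largest log2 fold change in cold. In TN WT it was measured at 16.3, 10.9 and 20.3 CPM, and in cold WT at 23.5, 30.2 and 28.4 CPM. In TN HIF2α AKO it was measured at 9.58, 19.6 and 17.9 CPM, and in cold HIF2α AKO at 38.0, 35.4 and 39.2 CPM. Every cold mouse was above every TN mouse, and every cold HIF2α AKO mouse was above every cold WT mouse.

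The log2 fold change of Prdm16 in cold was 1.25 (SE 0.26, adjusted p 0.00727) in HIF2α AKO, a 2.38-fold higher level. It was 0.79 (SE 0.26, adjusted p 0.0519) in WT, which missed the limit. Averaged over both genotypes it was 1.02 (SE 0.18, adjusted p 0.00151). The difference between the 2 genotypes in this response was 0.46 on the log2 scale (SE 0.37, unadjusted p 0.232), with a 95% interval from -0.34 to 1.27, so that a larger response in HIF2α AKO was not shown. Without TN WT mouse 2 the log2 fold change of Prdm16 in WT was 0.57, and without TN WT mouse 3, the library with epithelial transcripts, it was 1.01 and passed the limit (adjusted p 0.0278). It also passed, at 0.79, without TN HIF2α AKO mouse 1 (adjusted p 0.0179) or mouse 2 (adjusted p 0.0487), in a fit whose 4 groups share 1 estimate of the spread. Exons of Prdm16 share 109 bases with B230104I21Rik on the opposite strand, which is not among the genes counted, and the strand setting of the counting is not given in the sources used here.

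**Figure D2:**
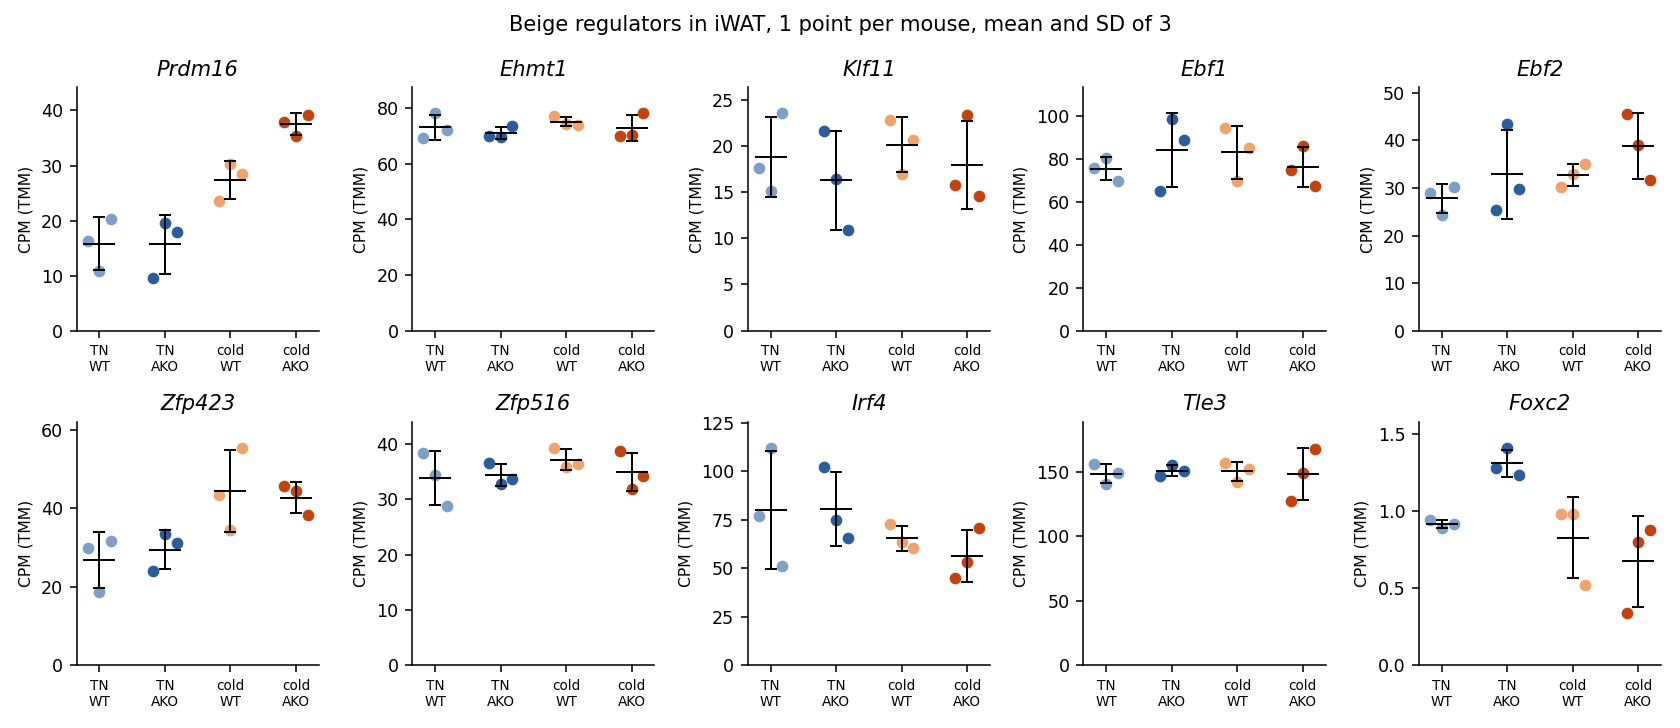
CPM after TMM scaling of the 10 regulators in 4 groups of iWAT, 1 point per mouse, with the mean and SD of 3 mice as bar and whiskers. Prdm16 and Zfp423 lie higher in cold than at TN without overlap within each genotype, while the groups of Ehmt1, Tle3 and Zfp516 overlap.

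Ehmt1, the methyltransferase partner of PRDM16, stood at 73.0 ± 4.54 CPM in TN WT, 71.0 ± 2.20 in TN HIF2α AKO, 75.1 ± 1.74 in cold WT and 72.8 ± 4.54 in cold HIF2α AKO. Its log2 fold change in cold was 0.04 in each genotype, with a 95% interval from -0.13 to 0.21 in both. The reads of Prdm16 relative to those of Ehmt1 in the same mouse do not depend on the scaling of libraries. At TN this ratio was 0.139 to 0.282 in WT and 0.137 to 0.282 in HIF2α AKO. In cold it was 0.305 to 0.407 in WT and 0.503 to 0.543 in HIF2α AKO, so that neither the temperatures nor, in cold, the genotypes overlapped. With Ehmt1 nearly level in all mice, this ratio largely repeats the separation already seen in the CPM of Prdm16 and adds no further evidence. How often ratios of other genes separate in this way was not computed.

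Klf11 varied more between mice than between groups. It ranged from 15.1 to 23.5 CPM in TN WT, from 10.9 to 21.6 in TN HIF2α AKO, from 16.9 to 22.8 in cold WT and from 14.6 to 23.4 in cold HIF2α AKO. The log2 fold change in cold was 0.10 (SE 0.26) in WT and 0.14 (SE 0.26) in HIF2α AKO.

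The early B cell factors Ebf1 and Ebf2 did not pass the test across temperature. Ebf2 was measured at 28.8, 24.4 and 30.2 CPM in TN WT, at 30.2, 33.0 and 34.9 CPM in cold WT, at 25.3, 43.4 and 29.9 CPM in TN HIF2α AKO, and at 45.6, 39.0 and 31.7 CPM in cold HIF2α AKO. The groups overlapped in both genotypes, and TN HIF2α AKO mouse 2 and cold HIF2α AKO mouse 1, the highest in their groups, were the libraries with muscle transcripts. The log2 fold change of Ebf2 in cold was 0.23 (SE 0.19, adjusted p 0.372) in WT and 0.24 (SE 0.19, adjusted p 0.358) in HIF2α AKO. Without TN HIF2α AKO mouse 2 the value in HIF2α AKO was 0.49 (adjusted p 0.0469). Averaged over both genotypes it was 0.23 (SE 0.13, adjusted p 0.165), and 0.33 (adjusted p 0.0323) without the 3 libraries with muscle or epithelial transcripts. Exons of Ebf2 share 424 bases with Gm10860 on the opposite strand, which is also not among the genes counted.

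Ebf1 stood at 75.4 ± 5.39 CPM in TN WT and 83.2 ± 12.5 in cold WT, and at 84.2 ± 17.2 in TN HIF2α AKO and 76.3 ± 9.36 in cold HIF2α AKO. Its log2 fold change in cold was 0.14 (SE 0.16) in WT and -0.14 (SE 0.16) in HIF2α AKO. Zfp516 gave 0.13 (SE 0.11) and 0.02 (SE 0.11), with a level of 33.9 ± 4.82 CPM in TN WT and 37.2 ± 1.89 in cold WT.

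Zfp423 (chr8:87661810-87959595, minus strand, GRCm38), the factor that restrains EBF2, rose where Ebf2 did not pass the test. It was measured at 30.0, 18.8 and 31.8 CPM in TN WT and at 43.4, 34.4 and 55.4 CPM in cold WT. HIF2α AKO mice were measured at 24.0, 33.4 and 31.1 CPM at TN and at 45.7, 44.3 and 38.3 CPM in cold. All 6 cold mice were above all 6 TN mice.

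The log2 fold change of Zfp423 in cold was 0.72 (SE 0.22, adjusted p 0.0370) in WT and 0.54 (SE 0.22, adjusted p 0.0843) in HIF2α AKO. Averaged over both genotypes it was 0.63 (SE 0.15, adjusted p 0.00715), a 1.55-fold higher level. The call in WT was lost when any 1 of 6 libraries was left out (TN WT mouse 1 or 2, cold WT mouse 1 or 3, TN HIF2α AKO mouse 3 or cold HIF2α AKO mouse 2), with log2 fold changes from 0.51 to 0.86 over all 12 such fits. The responses of the genotypes differed by -0.19 (SE 0.31), with a 95% interval from -0.86 to 0.48. Without TN WT mouse 2, Zfp423 in HIF2α AKO passed the limit at 0.53. Within a mouse, the ratio of Zfp423 to Ebf1 reads was 0.233 to 0.455 in TN WT and 0.458 to 0.652 in cold WT, and 0.339 to 0.368 in TN HIF2α AKO and 0.514 to 0.608 in cold HIF2α AKO, without overlap. The ratio of Ebf2 to Ebf1 reads overlapped in WT, with 0.303 to 0.433 at TN and 0.319 to 0.472 in cold. In HIF2α AKO it did not overlap, with 0.337 to 0.440 at TN and 0.452 to 0.607 in cold. The CPM of Ebf2 itself overlapped there, and Ebf1, the denominator, had a mean of 84.2 CPM at TN and 76.3 in cold. The ratio therefore does not show a rise of Ebf2 in HIF2α AKO, and how often other ratios separate was not computed. A difference between Zfp423 and Ebf2 in the response to cold was not tested.

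**Figure D3:**
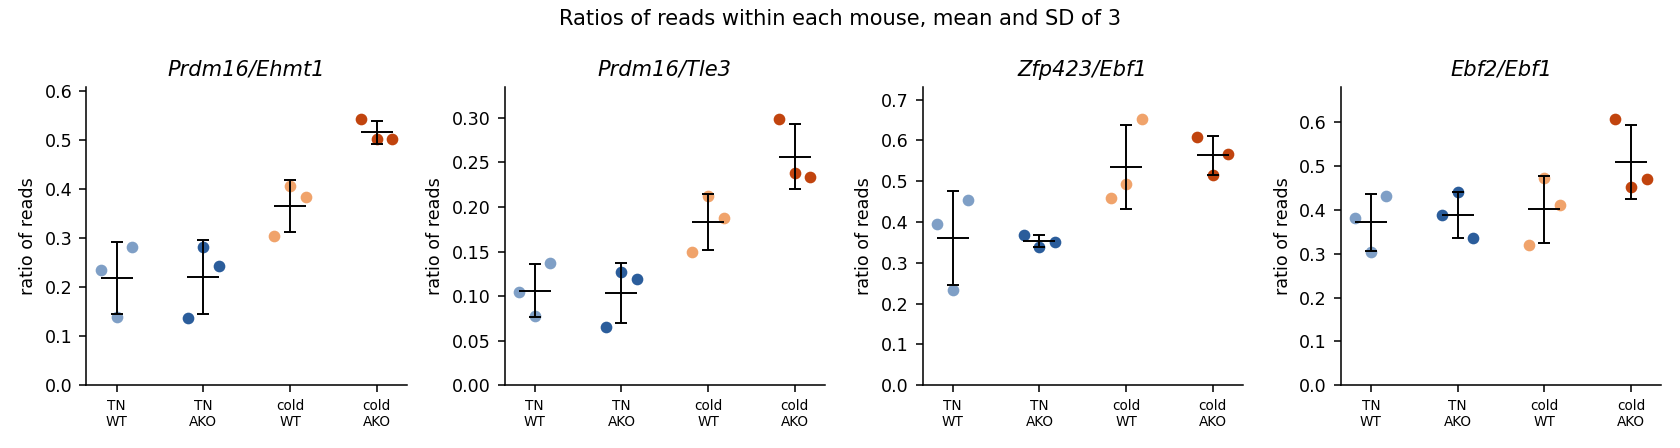
Ratio of the reads of 2 regulators within the same mouse in 4 groups, 1 point per mouse, with the mean and SD of 3 mice. The ratio of Prdm16 to Ehmt1 reads reaches 0.282 at TN and starts at 0.305 in cold, and that of Zfp423 to Ebf1 reads reaches 0.455 at TN and starts at 0.458 in cold.

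In whole tissue, fewer cells of a type and less RNA per cell cannot be told apart, and the summed markers of several cell types moved with temperature. The 8 white adipocyte markers summed to between 11268 and 27626 CPM at TN and between 21372 and 41366 CPM in cold, and 5 of the 8 rose in the averaged contrast. Cfd gave 40.0% and Fabp4 33.3% of this sum. Zfp423 had the same order as this sum over the 3 mice in each of the 4 groups. Its lowest mouse in TN WT (18.8 CPM) had 11268 CPM of the markers, and its highest in cold WT (55.4 CPM) had 41366 CPM.

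Set against that sum, a scale chosen after the values were seen, Zfp423 stood at 1.44 to 1.67 CPM per 1000 CPM of the markers in TN WT and at 1.28 to 1.61 in cold WT. In HIF2α AKO it stood at 1.21 to 1.67 at TN and at 1.41 to 1.52 in cold, so that TN and cold overlapped in both genotypes. Set against Adipoq alone, Zfp423 stood at 1.57 to 2.16 CPM per 100 CPM in the 6 TN mice and at 2.25 to 3.22 in the 6 cold mice, without overlap. The part of adipocyte content in the rise of Zfp423 was not tested. The 8 adipose progenitor markers moved the other way, with 6 of 8 lower in the averaged contrast and sums of 2670 to 3495 CPM at TN and 1741 to 2323 CPM in cold, without overlap. Pdgfra, 1 of the 8, did overlap, at 109 to 152 CPM at TN and 114 to 157 CPM in cold. The part of the progenitor markers in the levels of Ebf1, Ebf2 and Zfp423 was not tested. Sums of 7 mural and of 6 endothelial markers also had the order of Zfp423 in TN WT, TN HIF2α AKO and cold WT. In cold HIF2α AKO they did not. All 7 and all 6 had positive log2 fold changes in the averaged contrast, and 2 of each list passed the test. The part of these vessel markers in the level of Zfp423 was not tested either.

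Prdm16 set against the summed markers stood at 0.814 to 0.964 CPM per 1000 CPM in TN WT and at 0.686 to 1.41 in cold WT, which overlap. In HIF2α AKO it stood at 0.583 to 0.963 at TN and at 1.22 to 1.45 in cold, which do not. Against Adipoq the picture was alike, with overlap in WT, at 1.14 to 1.21 and 1.15 to 2.83 CPM per 100 CPM, and none in HIF2α AKO, at 0.811 to 1.24 and 1.92 to 2.94. Between the genotypes in cold, Prdm16 overlapped on both scales, through cold WT mouse 2 alone, whereas its CPM did not overlap.

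**Figure D4:**
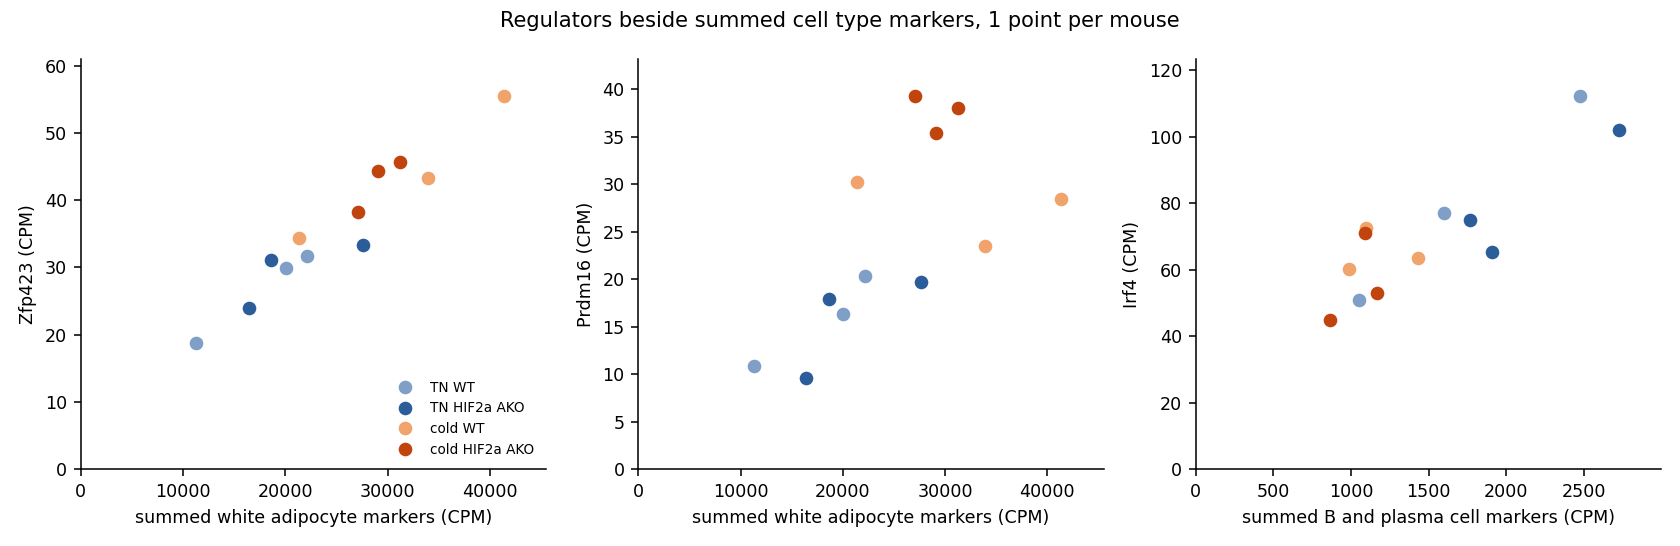
CPM of a regulator (vertical axis) beside the summed CPM of a marker list (horizontal axis) in the same mouse, for Zfp423 and Prdm16 with 8 white adipocyte markers and for Irf4 with 9 B and plasma cell markers. Zfp423 runs from 18.8 CPM at 11268 CPM of adipocyte markers to 55.4 CPM at 41366 CPM, and the 2 mice with the most Irf4, at 102 and 112 CPM, have the most B and plasma cell markers.

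Irf4 (chr13:30749226-30766976, plus strand, GRCm38), an activator of thermogenic genes in adipocytes and a lymphocyte factor, was not higher in cold. It was measured at 77.2, 112 and 51.0 CPM in TN WT and at 72.7, 63.6 and 60.4 CPM in cold WT. HIF2α AKO mice were measured at 102, 74.9 and 65.4 CPM at TN and at 45.0, 53.1 and 70.9 CPM in cold. The groups overlapped in both genotypes, and the spread was widest in TN WT.

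The log2 fold change of Irf4 in cold was -0.29 (SE 0.27) in WT, -0.52 (SE 0.27) in HIF2α AKO and -0.40 (SE 0.19, adjusted p 0.0966) on average. Without TN WT mouse 3 the average was -0.52 (adjusted p 0.0198), and without TN WT mouse 2 it was -0.25 (adjusted p 0.230). The average also passed with library size alone (-0.70, adjusted p 0.0171), with upper-quartile scaling (-0.52, adjusted p 0.0436) and without the 3 libraries with muscle or epithelial transcripts (-0.48, adjusted p 0.0481). The 9 B and plasma cell markers summed to between 1052 and 2726 CPM at TN and between 863 and 1429 CPM in cold, and 8 of the 9 fell in the averaged contrast. The TN WT mouse with the most Irf4 had 2477 CPM of these markers and that with the least had 1052 CPM, while the TN HIF2α AKO mouse with the most had 2726 CPM. Outside TN WT, the order of Irf4 over the mice of a group was not that of the markers. In cold WT, mouse 1 had 72.7 CPM of Irf4 at 1097 CPM of the markers, and mouse 2 had 63.6 CPM at 1429 CPM. In cold HIF2α AKO, mouse 3 had 70.9 CPM at 1091 CPM, and mouse 2 had 53.1 CPM at 1167 CPM. The part of these markers in the level of Irf4 was not tested.

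Tle3, the co-repressor that favours the white programme, stood at 148 ± 7.51 CPM in TN WT, 151 ± 4.29 in TN HIF2α AKO, 150 ± 7.53 in cold WT and 148 ± 20.3 in cold HIF2α AKO. Its log2 fold change in cold was 0.02 in WT, with a 95% interval from -0.21 to 0.24, and -0.03 in HIF2α AKO, with an interval from -0.25 to 0.20. The ratio of Prdm16 to Tle3 reads was 0.106 ± 0.0298 in TN WT and 0.183 ± 0.0315 in cold WT. In HIF2α AKO it was 0.104 ± 0.0335 at TN and 0.257 ± 0.0363 in cold.

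Foxc2 (chr8:121116171-121118895, plus strand, GRCm38, a single exon) was at the lower edge of what these libraries count, with 7 to 45 reads a library. It was measured at 0.942, 0.891 and 0.920 CPM in TN WT and at 0.984, 0.982 and 0.523 CPM in cold WT. HIF2α AKO mice were measured at 1.29, 1.41 and 1.24 CPM at TN and at 0.339, 0.804 and 0.881 CPM in cold. Cold and TN did not overlap in HIF2α AKO, and overlapped in WT.

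The log2 fold change of Foxc2 in cold was -0.15 (SE 0.34) in WT and -0.94 (SE 0.34, adjusted p 0.0599) in HIF2α AKO. Averaged over both genotypes it was -0.54 (SE 0.24, adjusted p 0.0800). Without cold HIF2α AKO mouse 1, a library with muscle transcripts and 7 reads of Foxc2, the log2 fold change in HIF2α AKO was -0.64, and without cold WT mouse 3 it was -0.94 and passed the limit. It also passed with library size alone (-1.19, adjusted p 0.0292), upper-quartile scaling (-1.03, adjusted p 0.0430), DESeq2 on 4 groups (-0.92, adjusted p 0.0341) and limma voom (-0.85, adjusted p 0.0276). On average Foxc2 passed with library size alone (-0.81, adjusted p 0.0206) and upper-quartile scaling (-0.65, adjusted p 0.0403). The 6 lymphatic endothelial markers, with 1 of them at 0 reads in each library, summed to 170 to 184 CPM in TN HIF2α AKO and 118 to 159 in cold HIF2α AKO. In WT they summed to 74.2 to 180 CPM at TN and 117 to 167 in cold. In TN HIF2α AKO, Lyve1 gave 86.3 to 92.5 CPM of the sum and Prox1 6.18 to 8.96 CPM. The part of these markers in the level of Foxc2 was not tested.

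**Figure D5:**
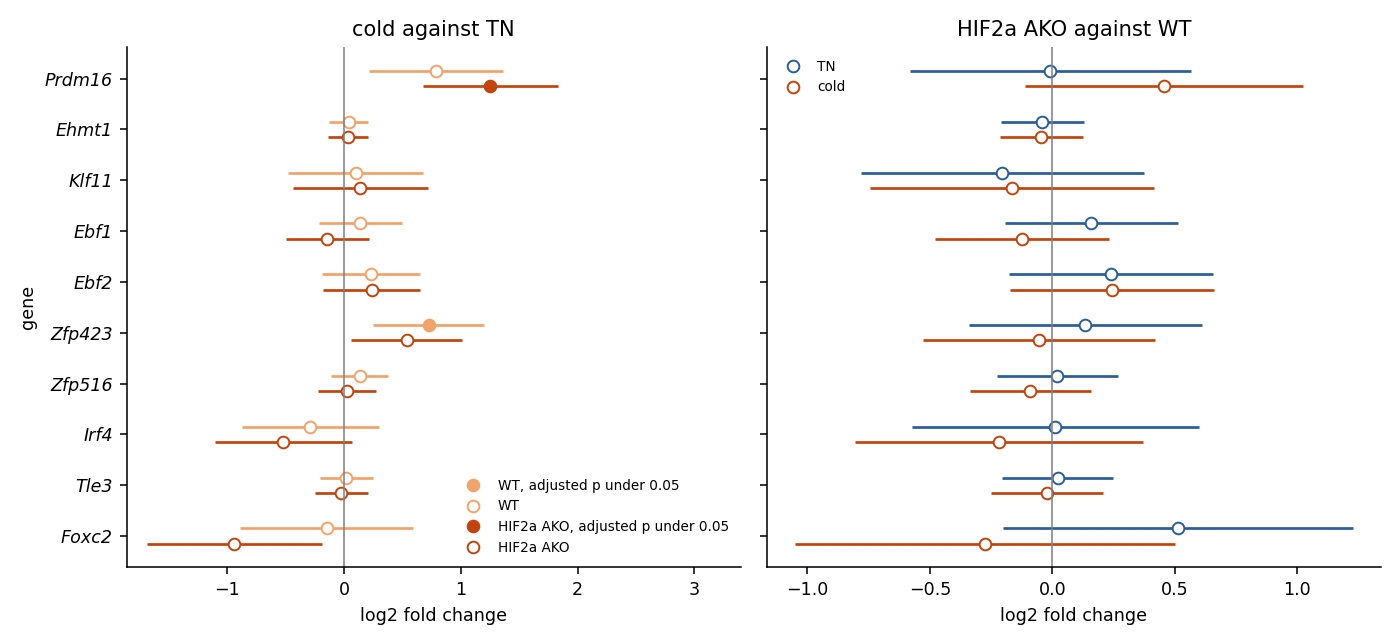
Log2 fold changes of the 10 regulators with 95% intervals from the edgeR fit, cold against TN on the left and HIF2α AKO against WT on the right, with filled points where the adjusted p was under 0.05. Only Zfp423 in WT, at 0.72, and Prdm16 in HIF2α AKO, at 1.25, are filled, and no point is filled on the right.

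HIF2α AKO against WT asks whether the regulators depend on HIF2α in adipocytes. No member passed the test in cold, at TN or averaged over both temperatures, beside 0.00653% of all genes in each of these contrasts, which is 1 gene. None had an unadjusted p under 0.05 in any of these contrasts, and DESeq2 and limma voom called none either. With an unadjusted p below 0.15 and a log2 fold change beyond 0.2 in either direction, Prdm16 alone of the 10 members passed in cold, beside 8.98% of all genes. Groups did not overlap for 1 member in cold, Prdm16, beside 7.53% of all genes, and for 1 member at TN, Foxc2, beside 7.69% of all genes.

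In cold, Prdm16 was 1.37-fold higher in HIF2α AKO than in WT, a log2 fold change of 0.46 (SE 0.26, unadjusted p 0.105), with a 95% interval from -0.11 to 1.02. Leaving out 1 library at a time gave 0.36 to 0.56. At TN the log2 fold change of Prdm16 was -0.01 (SE 0.26), with an interval from -0.58 to 0.57. In cold, Ebf2 gave 0.24 (SE 0.19), Irf4 -0.22 (SE 0.27) and Foxc2 -0.28 (SE 0.35). At TN, Foxc2 gave 0.51 (SE 0.33), Ebf2 0.24 (SE 0.19) and Klf11 -0.20 (SE 0.26). The narrowest intervals were those of Ehmt1, from -0.21 to 0.12 in cold and from -0.21 to 0.13 at TN, so that a change of Ehmt1 beyond these bounds is not contained in them.

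The interaction of genotype and temperature passed the test for 0 of 10 members, beside 0% of all genes by edgeR, where 327 genes had an unadjusted p under 0.05, and 0 genes by DESeq2 and limma voom. The lowest unadjusted p among members was that of Foxc2 at 0.128, with a difference of -0.79 (SE 0.48) between the genotypes' cold responses.

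Other genes of the pathway were read from lists in the same contrast, and no difference between these lists and the members was tested. All 18 thermogenic target genes rose in cold in the averaged contrast, at a median of 4.01 on the log2 scale, the largest rises being those of Ucp1, the uncoupling protein, at 11.99, Elovl3 at 10.25 and Fabp3 at 10.04. Of 21 partners of PRDM16 and other browning co-regulators, 15 rose and 1 fell, with a median of 0.36. The largest rises were Ppara at 3.15, Ppargc1a at 2.76 and Esrrg at 2.48, nuclear receptors and a coactivator of mitochondrial genes. The fall was Kdm1a, a histone demethylase found with PRDM16, at -0.21 (adjusted p 0.00727). These genes were listed with earlier results of the data known, and the counts stand beside 48.8% of all genes called.

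Of 12 adipogenic core factors, 7 rose and 1 fell, with a median of 0.47. Cebpb, a PRDM16 partner, rose by 1.97, Srebf1 by 1.06 and Pparg, the master factor of fat cells, by 0.91, and Cebpd fell by 0.41. Of 14 factors reported to oppose browning that were tested, of 16 listed, 3 rose and 2 fell, with a median of -0.01. Id1, Hoxc10 and Nr1h3 rose by 0.98, 0.97 and 0.92, and Rbl1 and Foxp1 fell by 0.72 and 0.62, all on the log2 scale.

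For each member, the genes most like it were taken as those with the highest Pearson correlation of the deviations from the group means, over 12 mice and among 11660 other genes (11661 for Foxc2), which describes shared variation between mice of a group and carries no test. Prdm16 was closest to Klhdc7a (r = 0.98), Ccm2l and Phlda3. Zfp423 was closest to Fbxl4 (r = 0.98), Arl4a and Klb, the last the co-receptor of FGF21. Ebf2 was closest to Hspb6 (r = 0.97), Vegfa and Phactr2, and Ebf1 to Cyfip1 (r = 0.95), Ulk2 and Arap2.

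Irf4 was closest to Sesn3 (r = 0.97), Bptf and Ada, and Tle3 to Papd7 (r = 0.96) and the interferon-induced genes Ifit1 and Ifih1. Zfp516 was closest to Dbr1 (r = 0.94), Tbx1 and Sgpl1, and Ehmt1 to Rpap1 (r = 0.95), Ints1 and Bub3. Klf11 was closest to Slc1a3 (r = 0.96), Grhl1 and Eif4a2, and Foxc2, with few reads, to Erap1 (r = 0.96), Slfn9 and Mitf. With 12 points and this many genes, high values of r are found for every member.

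The scaling of libraries set the direction of the steady members. With library size alone, the median of all genes moved to -0.33 in WT, from -0.03 with TMM scaling, and to -0.32 in HIF2α AKO, from -0.05. Upper-quartile scaling gave -0.17 and -0.14. Among all genes called in cold, the upward share was 73.3% in WT and 57.5% in HIF2α AKO with TMM, and 24.3% and 23.8% with library size alone. Relative to the median of all genes, Prdm16 stood 1.30 to 1.32 higher in HIF2α AKO and 0.82 to 0.84 higher in WT under all 4 scalings, and Zfp423 0.59 and 0.75 to 0.76 higher. A change of scaling shifts all genes of a contrast nearly alike, and taking off the median removes that shift. The agreement between scalings therefore holds for any member and adds no support to these rises. Ebf2, Ehmt1, Klf11, Zfp516 and, in WT, Ebf1 and Tle3 changed sign with library size alone, and so their directions are not given as changes.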

How the data were processed

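RNA sequencing of iWAT from 12 mice, 3 in each of 4 groups assigned by their labels, was analysed. The authors trimmed reads with Trim Galore 0.4.4, aligned them with STAR 2.6.1d to GRCm38 and counted them per gene with HTSeq 0.13.5, as named in the submitters' processing notes, and the deposited values are raw counts per gene. The annotation and the strand setting are not given in the sources used here. Counts were analysed in R 4.3.3 with edgeR 4.0.16 in 1 quasi-likelihood fit of 4 groups, with TMM scaling and filterByExpr (minimum count 10, minimum total 15), with Benjamini-Hochberg adjustment over the 15306 genes tested and a limit of 0.05. DESeq2 1.42.0, limma 3.58.1, other scalings and filters, a replicate block and fits without single libraries were alternatives, and the scripts were tested on simulated data. Exon lengths are unions of GENCODE exons on GRCm38. The labels do not say whether mice were littermates, and p-values measure the spread between these mice.

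All 10 members were named with their values. From each other list that is not a marker list, up to 3 of the largest rises and 3 of the largest falls with an adjusted p under 0.05 in the averaged cold contrast were named, besides tested paralogues (1 is not reported here), the 3 genes closest to each member (mean CPM of at least 5) and Epas1. The members and lists were chosen with earlier results of these data known. The fit without 3 libraries and the scales per adipocyte marker were added after the data were seen.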

Additional observations from a re-analysis of the deposited data

How the results depend on the processing

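With 3 mice a group, and with 7 to 45 reads of Foxc2 a library, small differences of the members were not detectable at this depth and replication. Prdm16 and Zfp423 passed the limit in the averaged cold contrast under every alternative run, with log2 fold changes from 0.76 to 1.22 for Prdm16 and from 0.35 to 0.72 for Zfp423. Of 782 member values under alternatives, 705 kept their direction and side of the limit, 25 newly passed it, 9 no longer passed it and 43 changed sign. These values belong to 33 results: every member in cold against TN within each genotype, and chosen members in other contrasts. From the averaged cold contrast only Prdm16, Zfp423, Irf4, Foxc2 and Ebf2 were counted. Moves of the other members there, given below, are outside this tally. The cause was not tested for any of these moves.

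In cold against TN in WT, the members called went from 1 to 0 with library size alone, with a replicate block and with edgeR on the 6 libraries compared. They went to 2, Prdm16 added, with DESeq2 on 4 groups, DESeq2 on the 6 libraries, limma voom, and the 9 libraries free of muscle and epithelial transcripts, an alternative chosen after seeing the data. The count ran from 0 to 2 when 1 library was left out. For HIF2α AKO it went from 1 to 2 with library size alone, upper-quartile scaling, DESeq2 on 4 groups, DESeq2 on 6 libraries and edgeR on 6 libraries, and to 3 with limma voom, and ran from 1 to 2 when 1 library was left out. Foxc2, downward, was added with both scalings and DESeq2 on 4 groups, Zfp423 with the fits of 6 libraries, and both with limma voom. The averaged count went from 2 to 7 with library size alone, where Ebf1, Irf4, Tle3, Foxc2 and Ehmt1 were added as falls and 63.7% of all genes were called. It went to 4 with upper-quartile scaling, where Irf4 and Foxc2 were added as falls beside 54.6% of all genes, and to 4 with the 9 libraries, where Ebf2 was added as a rise and Irf4 as a fall beside 43.6%. In cold, HIF2α AKO against WT gave 1 member, Prdm16, in place of 0 under the looser limits of an unadjusted p below 0.15 with a log2 fold change beyond 0.2 either way, limits taken from the study's methods, which 8.98% of all genes passed.

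The replicate numbers were not treated as pairs. Of 18 correlations between deviations of same-numbered mice, 5 were above 0.1, with a range from -0.43 to 0.39. Mice with different numbers were not compared, so this check cannot say whether the mice were paired. The paired fit with a replicate block left 1 member called in HIF2α AKO and 0 in WT, where Zfp423 kept a log2 fold change of 0.72 (adjusted p 0.0508).

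Sign changes touched values that had not passed the test as reported. With library size alone, log2 fold changes in cold were -0.17 for Ebf1, -0.062 for Ebf2, -0.17 for Zfp516, -0.28 for Tle3, -0.26 for Ehmt1 and -0.19 for Klf11 in WT, -0.024 for Ebf2, -0.25 for Zfp516, -0.23 for Ehmt1 and -0.13 for Klf11 in HIF2α AKO, and on average -0.043 for Ebf2, -0.25 for Ehmt1 (adjusted p 0.0224), -0.21 for Zfp516 and -0.16 for Klf11. With upper-quartile scaling they were -0.0037 for Zfp516, -0.12 for Tle3, -0.097 for Ehmt1 and -0.031 for Klf11 in WT and -0.070 for Zfp516 and -0.055 for Ehmt1 in HIF2α AKO, and on average -0.076 for Ehmt1 and -0.037 for Zfp516. Averaged values of Ebf1 and Tle3, at -0.00096 and -0.0037, were 0.0063 and 0.0029 with DESeq2 size factors. With limma voom, log2 fold changes were -0.029 for Tle3 in WT, -0.0036 for Zfp516 and -0.00038 for Ehmt1 in HIF2α AKO, and 0.067 for Prdm16 between genotypes at TN. Without a filter Tle3 in WT was -0.019. With the 9 libraries, values were -0.089 for Zfp516 and 0.094 for Tle3 in HIF2α AKO, and between genotypes 0.028 for Foxc2 in cold and 0.016 for Prdm16 at TN.

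When 1 library was left out, the cold response in WT ran from -0.53 to 0.013 for Irf4, from -0.036 to 0.055 for Tle3, from -0.049 to 0.30 for Klf11 and from -0.32 to 0.099 for Foxc2. The response in HIF2α AKO ran from -0.056 to 0.084 for Zfp516, from -0.13 to 0.072 for Tle3, from -0.017 to 0.063 for Ehmt1 and from -0.10 to 0.39 for Klf11. The difference between genotypes ran from -0.53 to 0.026 for Foxc2 in cold, and from -0.22 to 0.25 for Prdm16, from -0.012 to 0.40 for Ebf2 and from -0.46 to 0.017 for Klf11 at TN.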

Other observations

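Paralogues of the members, 21 of them tested, moved more often downward than upward in cold when averaged over both genotypes: 10 fell and 4 rose, with a median log2 fold change of -0.21, beside 48.8% of all genes called and a median of -0.05. Several interferon regulatory factors were among the falls. Irf7 fell by 0.75, Irf5 by 0.71, Irf8 by 0.64, Irf9 by 0.54 and Irf2 by 0.47 on the log2 scale, while Irf1 stood at -0.21 (adjusted p 0.129) and Irf3 at -0.04 (adjusted p 0.623). Irf8 and Irf5 are factors of myeloid and B cells, and Irf7 and Irf9 act in interferon signalling. In the same contrast 8 of 9 B and plasma cell markers fell, with a median of -0.81, 3 of 9 macrophage markers, with a median of -0.36, and 6 of 8 T cell markers, with a median of -0.55. Their part in the falls of these factors was not tested.

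Ebf3 was the early B cell factor that rose. It stood at 42.6 ± 9.73 CPM in TN WT and 64.1 ± 18.8 in cold WT, and at 48.1 ± 16.1 CPM in TN HIF2α AKO and 79.5 ± 8.26 in cold HIF2α AKO (mean ± SD, n = 3). Its log2 fold change was 0.66 (SE 0.19, adjusted p 0.0171) on average, and within a genotype it passed the limit in neither, at 0.59 (adjusted p 0.134) in WT and 0.72 (adjusted p 0.0685) in HIF2α AKO. Ebf4 stood at 0.18 (adjusted p 0.460). Mecom, the closest relative of Prdm16 on the list, rose by 0.26, Klf10 by 0.43 and Aes, a short relative of Tle3 without its repeat domain, by 0.62. The long Tle paralogues fell or did not pass, with Tle6 at -0.45, Tle4 at -0.42, Tle2 at -0.29 and Tle1 at -0.10 (adjusted p 0.488). Klf16 fell by 0.50, and Zfp521 (-0.19), Ehmt2 (-0.08) and Foxc1 (-0.02) did not pass the test.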
